A study of Mus musculus with 12 samples.

Results

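The genes described here encode the mouse chemokines that act on the receptor CXCR2: CXCL1, CXCL2, CXCL3, CXCL5 and PPBP. They were chosen by name, as 5 of the 23636 gene symbols in the expression table of an RNA sequencing experiment on CT26 cells, a mouse colon carcinoma line. The cells received no treatment, recombinant CX3CL1 at 2 µg/ml, IFN-γ at 100 ng/ml, or both agents (CX3CL1+IFN-γ), for 8 hours. The library labels and a figure legend of the study name IFN-γ only, whereas its text describes IFN-γ together with TNF-α, given before CX3CL1. Whether TNF-α was present, or the agents were added in turn, cannot be told from the sources used here. CX3CL1, also called fractalkine, is the ligand of the receptor CX3CR1, and IFN-γ is an interferon made mainly by T cells and NK cells. Each of the 4 groups had 3 libraries, labelled as biological replicates, so that 12 libraries of 1 cell line at 1 time and 1 dose of each agent were compared. The sources used here do not describe a carrier for the untreated cells, and they do not say whether replicates were separate cultures, so the tests measure the spread between these libraries.

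CXCR2 ligands are small secreted proteins that carry a Glu-Leu-Arg motif just before the CXC cysteines. They bind CXCR2 on neutrophils and related myeloid cells and draw these cells out of the blood and towards the source. CXCL1 (KC), CXCL2 (MIP-2), CXCL3 and CXCL5 (LIX) are induced in epithelial, stromal and myeloid cells by inflammatory signals, often through NF-kB, while PPBP, the precursor of CXCL7, is best known as a product of megakaryocytes and platelets.

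The genes lie together on chromosome 5, all on the + strand. In the GENCODE vM21 annotation of GRCm38 they run from CXCL5 (chr5:90759360-90761624) through PPBP (chr5:90768518-90770063), CXCL3 (chr5:90786103-90789600) and CXCL1 (chr5:90891241-90893115) to CXCL2 (chr5:90903871-90905938), a span of 146.579 kb. A gap of 101.641 kb divides CXCL5, PPBP and CXCL3 from CXCL1 and CXCL2. The other CXC chemokine genes PF4 and CXCL15 lie inside the span.

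Promoter sequences are shown because these neighbouring genes moved together, and because they show which short motifs the genes share. Of the 5 genes, 4 (CXCL1, CXCL2, CXCL3 and PPBP) matched the RefSeq promoter table of GRCm38.p6. Each line gives, 5′ to 3′ on the + strand, the 100 bases before the more upstream of the RefSeq and GENCODE starts, with a match to the NF-kB-like (kB) motif GGAATTTCC in capitals. The windows are chr5:90891141-90891240 for CXCL1, chr5:90903771-90903870 for CXCL2, chr5:90786001-90786100 for CXCL3 and chr5:90768418-90768517 for PPBP.
CXCL1: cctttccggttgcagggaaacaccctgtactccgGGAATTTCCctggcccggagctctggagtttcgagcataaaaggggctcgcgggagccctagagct
CXCL2: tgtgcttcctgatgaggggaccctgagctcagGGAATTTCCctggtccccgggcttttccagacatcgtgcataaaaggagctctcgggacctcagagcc
CXCL3: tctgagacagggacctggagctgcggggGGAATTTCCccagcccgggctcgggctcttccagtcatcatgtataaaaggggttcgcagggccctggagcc
PPBP: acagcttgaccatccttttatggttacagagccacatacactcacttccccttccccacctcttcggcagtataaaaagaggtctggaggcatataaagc
In CXCL1, CXCL2 and CXCL3 the kB motif began 66, 68 and 72 bases before the start, and PPBP held no match. Over the 250 bases upstream, searched on both strands, 3 of these 4 promoters held GGAATTTCC, against 0.286% of the 32851 promoters in the table. The TATA-like motif ATAAAA was found in 4 of 4, against 17.0% of all promoters. It began 29 or 30 bases before the start in each line above. The AP-1 motif TGANTCA was found in 1 of 4 (PPBP), against 6.75%, and the interferon-γ activated site motif TTCNNNGAA in 0 of 4, against 7.02%. The kB motif was searched as this exact sequence only, whereas the AP-1 and interferon-γ motifs allowed any base at some positions. Other forms of kB site, in PPBP or in any other promoter, were therefore not counted, and the share of 0.286% is that of this sequence alone. The contrast was not tested, and the 3 kB matches lie in neighbouring genes of 1 chemokine family, so they may not be independent. A match is a run of letters and not a measured binding site.

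Values are TPM (transcript abundance scaled to a total of 1000000 per library), which divide by transcript length, so levels can be compared between genes. TPM carry no read depth, and precision here rests on the spread between the 3 libraries. Replicates correlated at 0.984 to 0.996 (Pearson, log2(TPM + 1)), and CX3CL1 replicate 2 was the least alike in its group. As a check of the IFN-γ label, 7 of 7 tested interferon response genes were called higher with IFN-γ than without treatment. The leukocyte markers CD3E and CSF3R were listed at 0 in every library, and PTPRC was at most 0.0441 TPM. Among the other leukocyte markers, CD14 and CD68 were detected in all libraries, and the summed level of the 10 markers was 35.1 to 46.9 TPM without treatment, 38.0 to 69.5 with CX3CL1, 37.0 to 57.3 with IFN-γ and 41.9 to 70.3 with both. EPCAM was listed at 0 and CDH1 was at most 0.0430 TPM, while VIM, a mesenchymal filament gene, averaged 4174 TPM without treatment. Of 8 epithelial markers expected of a colon carcinoma, 2 (KRT18 and KRT20) had a mean of at least 0.2 TPM, and the 8 summed to 51.2 to 64.7 TPM without treatment, 33.6 to 44.4 with CX3CL1, 35.7 to 41.8 with IFN-γ and 24.9 to 33.2 with both, highest where the chemokine genes were lowest and lowest where they were highest. The 3 mesenchymal markers VIM, CDH2 and FN1 summed to 3959 to 5110 TPM without treatment and 3526 to 4174 with CX3CL1. Their sum was 2747 to 3782 TPM with IFN-γ and 2067 to 3352 with both, so it too was lowest with both agents. The part of any of these marker lists in the results below was not tested.

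All 5 genes had the same order of mean levels: lowest without treatment, then IFN-γ, then CX3CL1, and highest with both agents. How many of all tested genes share this order was not counted, and other genes described below, such as NFKBIZ and ZC3H12A, had it too. In the main test below, the step from IFN-γ to CX3CL1 was called for CXCL1 and CXCL5 only. CXCL1 was by far the most abundant in every group. The plot of levels by library shows the order of the means and the scatter of the replicates.

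**Figure D1:**
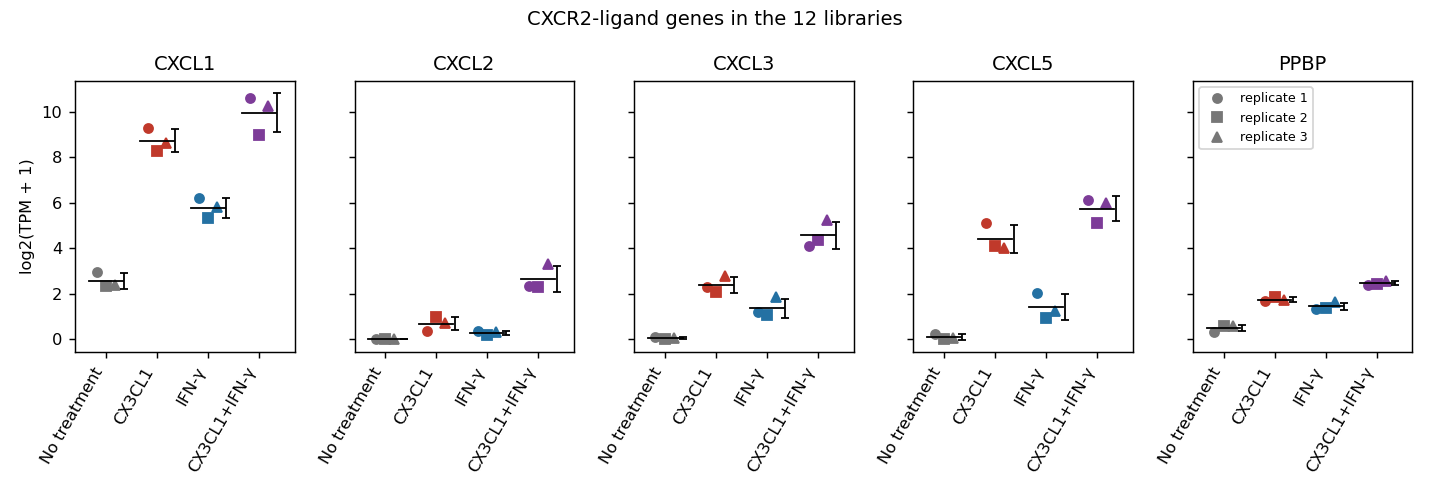
Levels of the 5 CXCR2-ligand genes as log2(TPM + 1) on the y axis, in the 4 groups on the x axis. Each symbol is 1 library (shape gives the replicate number), horizontal lines are means and bars are ± 1 SD (n = 3). The order no treatment, IFN-γ, CX3CL1, CX3CL1+IFN-γ of the means holds in all 5 panels.

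CXCL1 was at 6.70, 4.03 and 4.15 TPM in the untreated replicates 1, 2 and 3. IFN-γ alone gave 71.7, 39.0 and 54.5 TPM, and CX3CL1 alone gave 620, 305 and 393 TPM. With both agents it reached 1551, 499.9 and 1218 TPM. The untreated, IFN-γ and CX3CL1 libraries did not overlap, whereas the lowest CX3CL1+IFN-γ library lay below the highest CX3CL1 library. In all 4 groups replicate 1 was the highest library and replicate 2 the lowest. Ranked among all symbols of its library, CXCL1 stood between places 8953 and 9429 without treatment, between 2517 and 4234 with IFN-γ, between 230 and 546 with CX3CL1 and between 82 and 298 with both.

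CXCL5 was close to 0 without treatment, at 0.186, 0.0252 and 0.0282 TPM. IFN-γ alone gave 3.10, 0.906 and 1.36 TPM. CX3CL1 alone gave 34.0, 16.1 and 14.9 TPM, and both agents gave 68.9, 33.1 and 62.5 TPM. As for CXCL1, only the CX3CL1 and CX3CL1+IFN-γ groups overlapped, with 34.0 TPM in CX3CL1 replicate 1 above 33.1 TPM in CX3CL1+IFN-γ replicate 2.

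CXCL3 was at 0.0697, 0 and 0.0529 TPM without treatment. It was at 1.28, 1.08 and 2.60 TPM with IFN-γ and at 3.99, 3.25 and 5.90 TPM with CX3CL1. Both agents gave 16.3, 19.4 and 36.2 TPM. No 2 groups overlapped, and replicate 3 was the highest library in each treated group.

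CXCL2 was listed at 0 in all 3 untreated libraries. With IFN-γ it was at 0.294, 0.142 and 0.234 TPM, and with CX3CL1 at 0.300, 0.970 and 0.655 TPM. With both agents it was at 4.07, 3.98 and 8.80 TPM. The single-agent groups nearly touched, at 0.294 and 0.300 TPM, and the combined group stood clear of both. CXCL2 and CXCL3 transcripts share 61 windows of 50 bases, 3.37% of those of CXCL2 and 6.31% of those of CXCL3. The other member genes share no such window. These windows are shorter than the reads that the study describes, so whether whole reads could be assigned to either gene was not tested.

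PPBP had the smallest standard error of the 5 genes in the tests below. It was at 0.256, 0.479 and 0.487 TPM without treatment and at 1.52, 1.61 and 2.11 TPM with IFN-γ. CX3CL1 gave 2.16, 2.61 and 2.27 TPM, and both agents 4.24, 4.36 and 4.87 TPM. The groups did not overlap, although the IFN-γ and CX3CL1 groups lay side by side. The platelet marker genes other than PPBP summed to 0.542 to 1.15 TPM over all 12 libraries, and PF4, the gene next to PPBP, was at most 0.171 TPM.

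CX3CL1 alone was associated with higher levels of the chemokine genes. Mean CXCL1 was 4.96 ± 1.51 TPM without treatment and 439.5 ± 163 TPM with CX3CL1 (SD, n = 3), 88.6-fold higher. Pairs of libraries with the same replicate number gave 92.6, 75.6 and 94.7-fold. Same-numbered libraries of these groups did not all deviate together from their group means (lowest correlation 0.0047), so these are not shown to be matched pairs. CXCL5 rose from 0.0797 ± 0.0917 to 21.7 ± 10.7 TPM, CXCL3 from 0.0409 ± 0.0364 to 4.38 ± 1.37 TPM and PPBP from 0.407 ± 0.131 to 2.35 ± 0.236 TPM, the last 5.77-fold. In a limma fit over 11878 genes on log2(TPM + 1), a gene was called where its Benjamini-Hochberg adjusted p was under 0.05. CXCL1 changed by 6.17 ± 0.38 (SE) on the log2 scale (adjusted p = 6.9e-06), with 4.30 ± 0.35 for CXCL5 (6.1e-05), 2.34 ± 0.28 for CXCL3 (5.8e-04) and 1.25 ± 0.12 for PPBP (1.3e-04). The added 1 TPM makes these values smaller than the ratio of TPM for genes near 0. CXCL2 was at 0.642 ± 0.335 TPM against 0, a log2 difference of 0.69 ± 0.22 that was not called (adjusted p = 0.233). Thus 4 of 5 genes were higher, where 1.78% of all tested genes were called higher. The CX3CL1 libraries all lay above the untreated ones in 5 of 5 genes, against 5.5% of tested genes. More cells with a transcript and more transcript per cell cannot be told apart in these bulk libraries.

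IFN-γ alone was associated with a smaller rise. Mean CXCL1 was 55.0 ± 16.4 TPM, 11.1-fold higher than without treatment, with a log2 fold change of 3.22 ± 0.38 (adjusted p = 1.2e-04). Changes on the same scale were 0.96 ± 0.12 for PPBP (1.6e-04), 1.31 ± 0.28 for CXCL3 (0.0103) and 1.29 ± 0.35 for CXCL5 (0.0378). CXCL2 was not called, at 0.29 ± 0.22 (adjusted p = 0.497). So 4 of 5 genes were higher, with 5.91% of tested genes called higher, and all libraries were above all untreated ones in 5 of 5 genes, against 20.6% of tested genes. The CXCL5 call was lost on dropping any of 5 of the 6 libraries compared (the 3 untreated ones, IFN-γ replicate 1 or IFN-γ replicate 3), with adjusted p over all 6 from 0.0293 to 0.154. The CXCL3 call was lost without IFN-γ replicate 3 (adjusted p = 0.0545).

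Set directly against each other, the single agents differed for CXCL1 and CXCL5. CXCL1 was 7.99-fold higher with CX3CL1 than with IFN-γ, and CXCL5 12.1-fold higher, with log2 differences of IFN-γ against CX3CL1 of -2.95 ± 0.38 (adjusted p = 0.0011) and -3.00 ± 0.35 (6.1e-04). The differences were -1.03 ± 0.28 for CXCL3 (0.0548), -0.41 ± 0.22 for CXCL2 (0.322) and -0.29 ± 0.12 for PPBP (0.183), none of them called. Hence 2 of 5 genes were lower with IFN-γ, with 1.06% of tested genes called lower. With the replicate number as a block, CXCL3 was also called (adjusted p = 0.0045), when 3.19% of tested genes were called lower. PPBP was therefore the gene whose 2 single-agent means lay closest, 1.34-fold apart.

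In cells that also received IFN-γ, CX3CL1 was associated with higher levels of all 5 genes. The rise over IFN-γ alone was 19.8-fold for CXCL1, to 1089.6 ± 537 TPM, and 30.7-fold for CXCL5, to 54.9 ± 19.1 TPM. It was 25.1-fold for CXCL2, from 0.223 ± 0.0766 to 5.61 ± 2.76 TPM, 14.5-fold for CXCL3, to 24.0 ± 10.7 TPM, and 2.57-fold for PPBP, to 4.49 ± 0.335 TPM. The log2 fold changes were 4.17 ± 0.38 for CXCL1 (adjusted p = 2.6e-04), 4.34 ± 0.35 for CXCL5 (1.1e-04), 3.19 ± 0.28 for CXCL3 (1.9e-04), 2.36 ± 0.22 for CXCL2 (3.3e-04) and 1.00 ± 0.12 for PPBP (0.00145). These calls of 5 of 5 genes stand beside 0.345% of tested genes called higher, 41 genes in all, of which the chemokine genes were 5. Every combined library exceeded every IFN-γ library for 5 of 5 genes, against 8.54% of tested genes. All 5 calls held whichever of the 6 libraries was dropped from the fit, and under each of the 8 other alternatives.

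When IFN-γ was added to CX3CL1, the ratios of means were largest for CXCL2 and CXCL3. CXCL2 was 8.75-fold and CXCL3 5.48-fold higher with both agents than with CX3CL1, with log2 fold changes of 1.96 ± 0.22 (adjusted p = 4.1e-04) and 2.16 ± 0.28 (6.8e-04). PPBP was 1.91-fold higher, at 0.71 ± 0.12 (0.0037), and CXCL5 2.53-fold higher, at 1.33 ± 0.35 (0.0477). CXCL1 was 2.48-fold higher by the means, but its libraries overlapped and it was not called, at 1.22 ± 0.38 (0.0978). Same-numbered libraries gave CXCL1 ratios of 2.50, 1.64 and 3.10, and with the replicate number as a block it was called (adjusted p = 0.00225). Without CX3CL1+IFN-γ replicate 2 it was called as well (adjusted p = 0.00792). The count was 4 of 5 genes, with 3.76% of tested genes called higher, and 5 of 5 with the block, with 8.71%. All combined libraries lay above all CX3CL1 libraries in 3 of 5 genes (CXCL2, CXCL3 and PPBP), against 14% of tested genes. The CXCL5 call was lost on dropping any of 4 of the 6 libraries compared (CX3CL1 replicate 2 or 3, or CX3CL1+IFN-γ replicate 1 or 3), with adjusted p over all 6 from 0.0139 to 0.181.

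**Figure D2:**
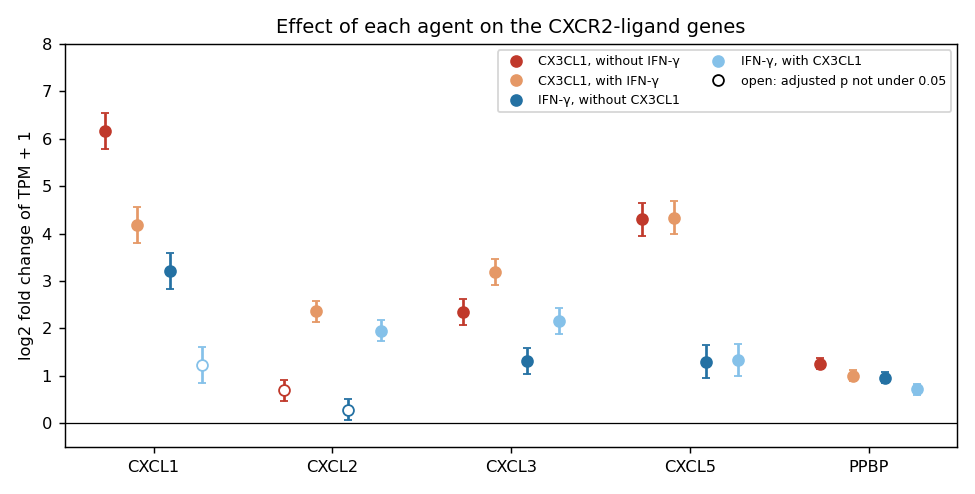
Log2 fold change of TPM + 1 (y axis) for each gene (x axis), for CX3CL1 without and with IFN-γ and for IFN-γ without and with CX3CL1. Points are limma estimates with bars of ± 1 SE (3 libraries a group), filled where the adjusted p is under 0.05. For CXCL1 the CX3CL1 effect is 6.17 without and 4.17 with IFN-γ, and for CXCL2 it is 0.69 and 2.36.

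Against no treatment, the combination was called higher for 5 of 5 genes, with 8.21% of tested genes called higher. The log2 fold changes ran from 1.97 for PPBP to 7.39 for CXCL1, with 2.65 for CXCL2, 4.50 for CXCL3 and 5.63 for CXCL5. In TPM, mean CXCL1 was 220-fold and mean PPBP 11.03-fold the untreated level.

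Whether the effect of CX3CL1 depended on IFN-γ was tested as an interaction on the log2 scale, the difference between the CX3CL1 effect with IFN-γ and that without. It was -2.00 ± 0.54 for CXCL1 (unadjusted p = 0.00275, adjusted p = 0.446) and 1.67 ± 0.32 for CXCL2 (unadjusted p = 1.8e-04, adjusted p = 0.139). It was 0.85 for CXCL3 (unadjusted p = 0.0484), 0.04 for CXCL5 (0.939) and -0.25 for PPBP (0.158). By limma 0 of 5 genes and 0% of all tested genes passed, with 273 of 11878 genes at an unadjusted p under 0.05. The signs for CXCL3 and CXCL5 turned with an added 0.1 TPM in place of 1, to -1.20 and -1.96.

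On the linear scale, levels with both agents were compared with the sum of the single-agent levels less the untreated level, a description made after the values were seen. For CXCL1 the sum was 489.6 TPM and the observed mean 1089.6 TPM, a ratio of 2.23. The ratio was 6.49 for CXCL2, 4.001 for CXCL3, 2.35 for CXCL5 and 1.22 for PPBP. All 3 combined libraries lay above the sum of the group means for each gene. For CXCL1 the lowest of them, replicate 2, was close to the sum, at 499.9 TPM. Each replicate number alone gave a ratio above 1, and the lowest such ratios were 1.47 for CXCL1 and 1.16 for PPBP. Untreated libraries did not deviate together with every same-numbered CX3CL1 or CX3CL1+IFN-γ library (lowest correlations 0.0047 and 0.0324), which limits these ratios. The share of all tested genes above their additive sum was not computed. The CXCL1 levels were thus above additive in TPM while the log2 interaction was negative.

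**Figure D3:**
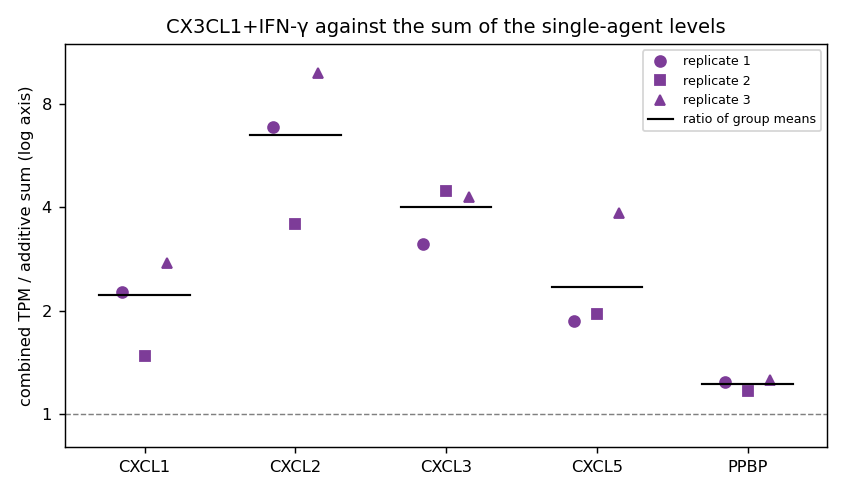
Ratio of TPM with CX3CL1+IFN-γ to the additive sum (CX3CL1 plus IFN-γ minus no treatment) on a log y axis, for the 5 genes on the x axis. Symbols are ratios within a replicate number, lines the ratio of the group means, and the dashed line marks 1; all symbols lie above it, with PPBP nearest at 1.16 to 1.25.

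Summed over the 5 genes, the CXCR2-ligand transcript level was 5.49 ± 1.49 TPM without treatment, 60.5 ± 17.6 with IFN-γ, 469 ± 172 with CX3CL1 and 1179 ± 558 with both (SD, n = 3). Two-sided exact permutation tests with 3 libraries a side cannot go below p = 0.1. Each comparison with no treatment and that of CX3CL1+IFN-γ with IFN-γ gave an exact p of 0.1 (adjusted over 5 comparisons, 0.125), and CX3CL1+IFN-γ against CX3CL1 gave an exact p of 0.2 (adjusted 0.2). CXCL1 made up 89.9%, 91.0%, 93.7% and 91.7% of the sum on average without treatment, with IFN-γ, with CX3CL1 and with both. The make-up of the small remainder moved more. PPBP was 8.14% ± 3.97 of the sum without treatment, 3.07% ± 0.975 with IFN-γ, 0.557% ± 0.235 with CX3CL1 and 0.467% ± 0.274 with both, and CXCL5 went from 1.24% ± 1.15 without treatment to 4.54% ± 0.852 with CX3CL1.

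In the fit without a block, the neighbouring genes that could be tested were not called in either CX3CL1 comparison. Of 11 other genes of the cluster and its flanks, 7 passed the filter of a mean of at least 0.2 TPM. For CX3CL1 alone 0 of 7 were called in limma, beside 1.78% of tested genes called higher. Their median log2 fold change was 0.24 against -0.02 over all tested genes. For CX3CL1 in the presence of IFN-γ 0 of 7 were called, beside 0.345%, with a median of 0.08 against -0.00. With shares this low, 0 of 7 does not set these genes apart from other tested genes. MTHFD2L, a mitochondrial folate enzyme whose start lies 39.876 kb from that of CXCL1, had log2 fold changes of 0.30 ± 0.14 and 0.35 ± 0.14. EREG, which encodes the EGF receptor ligand epiregulin, came closest to a call, at 0.67 ± 0.18 (adjusted p = 0.096) and 0.74 ± 0.18 (adjusted p = 0.179). With the replicate number as a block it was called higher in the second comparison (adjusted p = 0.0232), which made 1 of 7, when 0.749% of tested genes were called higher. The block also called EREG higher for CX3CL1 alone (adjusted p = 0.0137), 1 of 7 beside 2.92% of tested genes. In that comparison same-numbered libraries did not pair throughout. Inside the cluster, PF4 and CXCL15 stayed under the filter, and CXCL15 was listed at 0 in every library.

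**Figure D4:**
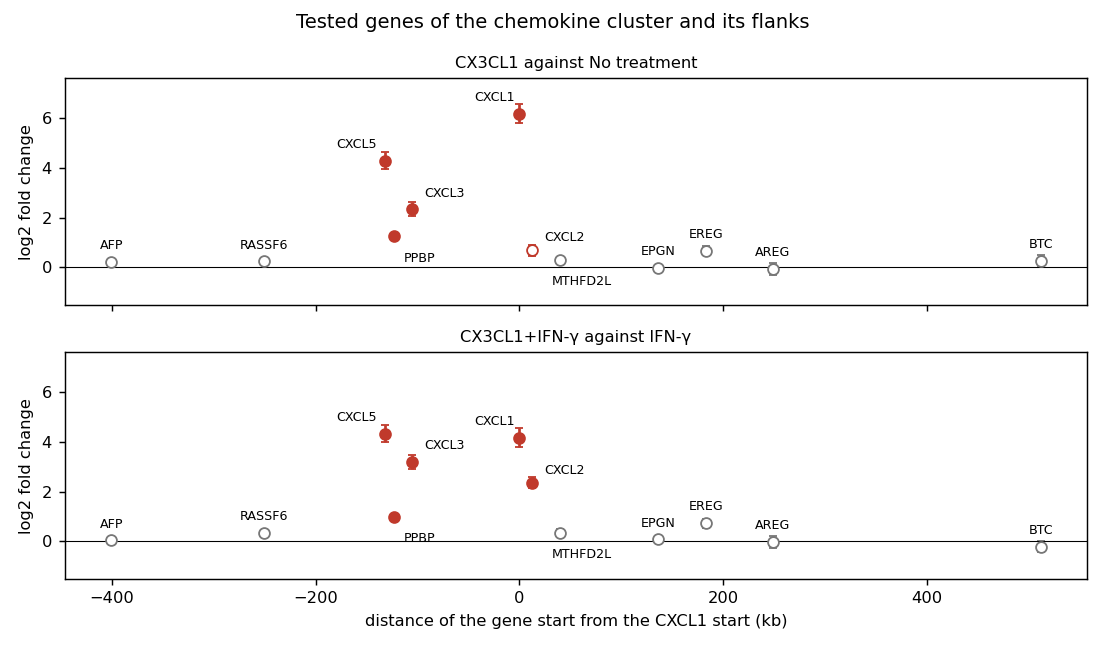
Log2 fold change with bars of ± 1 SE (y axis) against the distance of each gene's start from the CXCL1 start in kb (x axis), for CX3CL1 against no treatment (top) and CX3CL1+IFN-γ against IFN-γ (bottom). Red marks the CXCR2-ligand genes, grey the 7 tested flanking genes, and filled points an adjusted p under 0.05; in the bottom panel all 5 red points are filled and all grey points are open, in the fit without a block.

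The receptor for these ligands was not detected at a level that could be tested. CXCR2 was at most 0.110 TPM in any library, and CXCR1, a related receptor, and ACKR1, a decoy receptor, were listed at 0 throughout, so 0 of 3 passed the filter.

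By their pattern over the 12 libraries, the genes most like CXCL1 among those tested were ZC3H12A (Pearson r = 0.982, Spearman rho = 0.986), MAP3K8 (r = 0.978), SLC11A2 (r = 0.977), CXCL5 (r = 0.975) and NFKBIZ (r = 0.972). The genes most like CXCL5 were NFKBIZ (r = 0.992, rho = 0.993), ZC3H12A (r = 0.988), CXCL1 (r = 0.975), NFKB1 (r = 0.975) and FNDC7 (r = 0.972). These correlations of log2(TPM + 1) describe 12 libraries that fall into 4 groups, so that points of a group share their treatment. The other members were less like CXCL1, with r = 0.940 for PPBP, 0.916 for CXCL3 and 0.775 for CXCL2.

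NFKBIZ, which encodes the nuclear IkB-zeta protein that acts with NF-kB at a subset of inflammatory genes, averaged 6.35 TPM without treatment, 12.1 with IFN-γ, 45.6 with CX3CL1 and 70.1 with both. Its log2 fold change was 2.67 ± 0.24 for CX3CL1 alone (adjusted p = 1.3e-04) and 2.46 ± 0.24 for CX3CL1 with IFN-γ (3.3e-04). ZC3H12A encodes Regnase-1, a ribonuclease that degrades inflammatory mRNAs. It averaged 3.61, 7.88, 31.6 and 44.8 TPM in the same order, with log2 fold changes of 2.79 ± 0.27 (1.4e-04) and 2.31 ± 0.27 (0.00128). For IFN-γ alone their log2 fold changes were 0.78 ± 0.24 (adjusted p = 0.0705) and 0.93 ± 0.27 (adjusted p = 0.0528), and with the replicate block both were called (adjusted p = 0.0131 and 0.0048).

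Among 14 NF-kB and IkB genes, all of them tested, 7 were higher with CX3CL1 alone and 0 lower, beside 1.78% of tested genes called higher, with a median log2 fold change of 0.75 against -0.02 over all tested genes. These were NFKBIZ, NFKBIA at 2.25 ± 0.30, RELB at 1.67 ± 0.22, BCL3 at 1.60 ± 0.31, NFKBIE at 1.497 ± 0.25, NFKB1 at 0.93 ± 0.10 and NFKB2 at 0.90 ± 0.20. RELA, a main transactivating subunit, was at 0.20 ± 0.13 (adjusted p = 0.903). In the presence of IFN-γ the calls were 2 of 14, NFKBIZ and NFKB1 (0.82 ± 0.10), beside 0.345% of tested genes, with a median of 0.23. The replicate block added BCL3, at 1.46 (adjusted p = 0.0065), which made 3 of 14, beside 0.749% of tested genes. Of 11 regulators of chemokine mRNA decay, 2 were higher with CX3CL1 alone, ZC3H12A and ZFP36L1 (0.65 ± 0.14), beside 1.78% of tested genes. In the presence of IFN-γ 1 was called higher, ZC3H12A, beside 0.345% of tested genes. The medians of the list were 0.22 and 0.17, against -0.02 and -0.003 over all tested genes. ZFP36, the gene of the decay factor tristetraprolin, was at 0.29 ± 0.26 with CX3CL1 alone (not called).

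Other granulocyte attractants and growth factors were called in part. Of 17 listed genes 12 were tested, and 4 were higher with CX3CL1 alone, beside 1.78% of tested genes, with a median log2 fold change of 1.01. IL6, an acute phase cytokine, rose from 0.283 ± 0.109 to 2.13 ± 0.514 TPM (log2 fold change 1.28 ± 0.22). CSF1, the macrophage growth factor, changed by 0.95 ± 0.18, LIF by 1.35 ± 0.25 and the complement gene C3 by 2.66 ± 0.53. When IFN-γ was present throughout, 2 of 12 were higher with CX3CL1, IL6 at 2.07 ± 0.22 and IL1A at 1.71 ± 0.30, beside 0.345% of tested genes. The replicate block made it 5 of 12, beside 0.749%, with LIF (adjusted p = 0.0094), CSF3 (0.0161) and LCN2 (0.0223) added. IL6 with both agents averaged 22.7 ± 8.23 TPM, near the level of CXCL3.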

How the data were processed

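RNA of CT26 cells was sequenced in 12 libraries, 3 per group. The authors prepared mRNA libraries that keep strand, aligned reads to mm10 with STAR 2.7.3a and tested counts with DESeq2 1.22.1. The deposited values used here are TPM, scaled by the authors to 1000000 per library; how counts became TPM and the annotation are not given in the sources used here. TPM hold no depth, so no counting error was computed. Groups came from the library labels. The dose and time of CX3CL1 came from the study's methods, and those of IFN-γ from a figure legend of the study.

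Tests were computed in R 4.3.3 with limma 3.58.1 (lmFit, then eBayes with its trend option). Log2(TPM + 1) of the 11878 genes averaging 0.2 TPM or more entered one fit of all 12 libraries without a block. Adjustment was by Benjamini-Hochberg within a comparison, at 0.05. The script was tested on simulated data first. The members, the gene lists and the tests were chosen with earlier results of these data known. Genes named are the members, list genes called in a CX3CL1 comparison or defining a list, and the 5 genes most like CXCL1 and CXCL5; MTHFD2L, EREG and the marker genes were named after their values were seen.

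The labels number replicates alike in each group. In 4 of the 6 pairs of groups, same-numbered libraries deviated together from their group means in every pair (correlations 0.220 to 0.649), and the blocked fit is given there where it changed a call that the text gives. Every blocked comparison came from a fit of all 12 libraries, so it also drew on the pairs of groups that did not pair throughout. Other settings tried were the block, leaving out each library, a fit of the compared groups alone, eBayes without the trend, quantile or median-ratio normalization, a filter at 1 TPM or none, and 0.1 added before the log.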

Additional observations from a re-analysis of the deposited data

How the results depend on the processing

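Of the results for single genes, 480 kept their direction and side of the threshold, 15 lost a call, 10 gained one and 10 turned direction. Counts of called genes moved by over 1.5 times in 2 cases. For IFN-γ against no treatment the count ran from 2 to 4 of 5 when 1 library was left out, lowest without IFN-γ replicate 3. For the interaction the count was 2 of 5 with the replicate block (CXCL1, adjusted p = 0.0142, and CXCL2, adjusted p = 0.0494), when 0.438% of tested genes were called. That fit includes untreated libraries, which did not pair with every same-numbered CX3CL1 or CX3CL1+IFN-γ library (lowest correlations 0.0047 and 0.0324). It changed no other call of a CXCR2-ligand gene than those given here and in the results. For CX3CL1 alone it called EREG higher (adjusted p = 0.0137), so that 1 of 7 flanking genes was called. It also gave 6 of 12 granulocyte factors (with CSF2 and LCN2 added) and 8 of 14 NF-kB and IkB genes (with NFKBIB added), beside 2.92% of tested genes. For IFN-γ alone, where same-numbered libraries paired, it called 8 of 14 NF-kB and IkB genes in place of 5, 4 of 11 decay regulators in place of 1 and 7 of 12 granulocyte factors in place of 4. Over all tested genes, the blocked fit called 11.4% higher for IFN-γ alone, in place of 5.91% without the block. With a pseudocount of 0.1 the interaction became -1.20 for CXCL3 and -1.96 for CXCL5. For CXCL5 it was -0.000314 with median-ratio scaling, and -0.197 to 0.40 with 1 library left out. CXCL2 was called for each single agent with a pseudocount of 0.1 (adjusted p = 0.00145 for CX3CL1 and 0.0186 for IFN-γ). CXCL5 lost its call for IFN-γ with no filter (adjusted p = 0.0976), and for CX3CL1+IFN-γ against CX3CL1 with a pseudocount of 0.1, no filter, median-ratio scaling or only the libraries compared (highest adjusted p = 0.129). CXCL3 was called for IFN-γ against CX3CL1 with a pseudocount of 0.1, quantile normalization or without IFN-γ replicate 3. The cause was not tested. TPM without counts leave genes near 0, such as CXCL2, with no measure of counting error.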

Other observations

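The genes most like the 3 other members over the 12 libraries were looked up after the values were seen. PPBP and CXCL3 each had CCL20, which encodes the CCR6 ligand, among their 5 most alike genes (Pearson r = 0.978 and 0.959), and it averaged 0.221 TPM without treatment, 3.48 with IFN-γ, 7.32 with CX3CL1 and 19.3 with both. Both also had SLC11A1, a phagosomal metal transporter gene, in that list (r = 0.972 and 0.969). PPBP and CXCL3 were in each other's list (r = 0.957). IL13RA2, which encodes a decoy receptor of IL-13, was like PPBP (r = 0.970) and averaged 0.354, 3.88, 4.78 and 20.5 TPM in the same order. The likenesses are descriptions over 4 groups of 3 libraries and were not tested.

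LCN2, the gene of the neutrophil-associated protein lipocalin-2, had log2 fold changes of 2.91 ± 1.02 for CX3CL1 alone and 3.07 ± 1.02 for IFN-γ alone in limma (adjusted p = 0.306 and 0.0915), with a larger SE than any CXCR2-ligand gene. With the replicate number as a block the SE was 0.318 and both were called (adjusted p = 4.0e-04 and 8.7e-05). For CX3CL1 alone the block joined untreated and CX3CL1 libraries that did not pair at every replicate number (lowest correlation 0.0047). CSF3, which encodes the granulocyte growth factor G-CSF, was at 0.87 ± 0.44 for CX3CL1 alone and 1.93 ± 0.44 in the presence of IFN-γ, neither of them called without a block (adjusted p = 0.735 and 0.146), and the second was called with it (adjusted p = 0.0161).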
